A study of Mus musculus with 24 samples.

Results

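The genes described here are 43 genes of DNA replication and S phase, the period of the cell cycle in which the genome is copied. They were taken by symbol from the 24982 genes of the deposited tables; all 43 were found, and all 43 were among the 12743 genes that passed the filter on low counts. The cells were eosinophils from the bone marrow of wild type C57BL6 mice, sorted into 4 stages of maturation named I to IV. Mice were either left in steady state or given 400 ng of interleukin 33 (IL-33) into the peritoneum daily for 7 days, IL-33 being a cytokine released by damaged tissue that raises eosinophil numbers. Stage and condition give 8 groups of 3 libraries, and each library was made from cells pooled from 3 mice, so a library is a pool and not an animal. Cells bearing Ly6G, CD90.2, NK1.1 or CD45R, which mark neutrophils and lymphoid cells, were removed by magnet before the sort. The labels give no age and name no injection for the steady state mice.

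A replicating cell prepares its origins in G1, when the origin recognition complex (Orc1, Orc6), Cdc6 and Cdt1 load the MCM2-7 helicase onto DNA. At the start of S phase, Mcm10, Cdc45 and the GINS complex (Gins1 to Gins4) switch the helicase on, polymerase alpha with primase lays down primers, and polymerases epsilon and delta extend them on the clamp Pcna, which the RFC complex (Rfc1 to Rfc5) loads. Rpa1 and Rpa2 cover single-stranded DNA, Fen1 and Lig1 finish the lagging strand, Rrm1, Rrm2, Tyms, Tk1 and Dut supply deoxynucleotides, and Slbp, Chaf1a, Chaf1b and Uhrf1 serve histone supply, histone deposition and copying of DNA methylation. Many of these genes are known targets of E2F transcription factors, which are held off by pocket proteins of the retinoblastoma family when cells leave the cycle. Eosinophil precursors divide in the marrow, and mature eosinophils do not.

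Gene counts summed to 8335138 to 14909453 per library. Reads assigned to no gene made up 17.8% to 30.5% of counted reads in steady state and 9.19% to 16.6% under IL-33, so this measure moved with the condition; its part in the results was not tested. Eosinophil markers, 10 of 10 found, had a summed level between 3433 CPM (in steady state stage IV) and 41761 CPM. In steady state stage IV, Ccr3 was at 2243, 2156 and 1572 CPM but the granule gene Epx only at 20.2, 18.6 and 26.5 CPM. Neutrophil markers summed to more than these 10 in that group, as given below. CPM here means the count of a gene per 1000000 gene counts, with library sizes adjusted by TMM factors (trimmed mean of M values). The 4 steady state libraries numbered 3 stood apart by 6 stress genes (Jun, Fos and others), with a summed level of 9227 to 10735 CPM against at most 6260.3 CPM in the 12 IL-33 libraries, and results that rest on them are given without them. In bulk RNA, fewer cells of a type and less RNA per cell cannot be told apart. Where p-values are given they measure the spread between these pooled libraries, which the series calls biological triplicates.

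**Figure D1:**
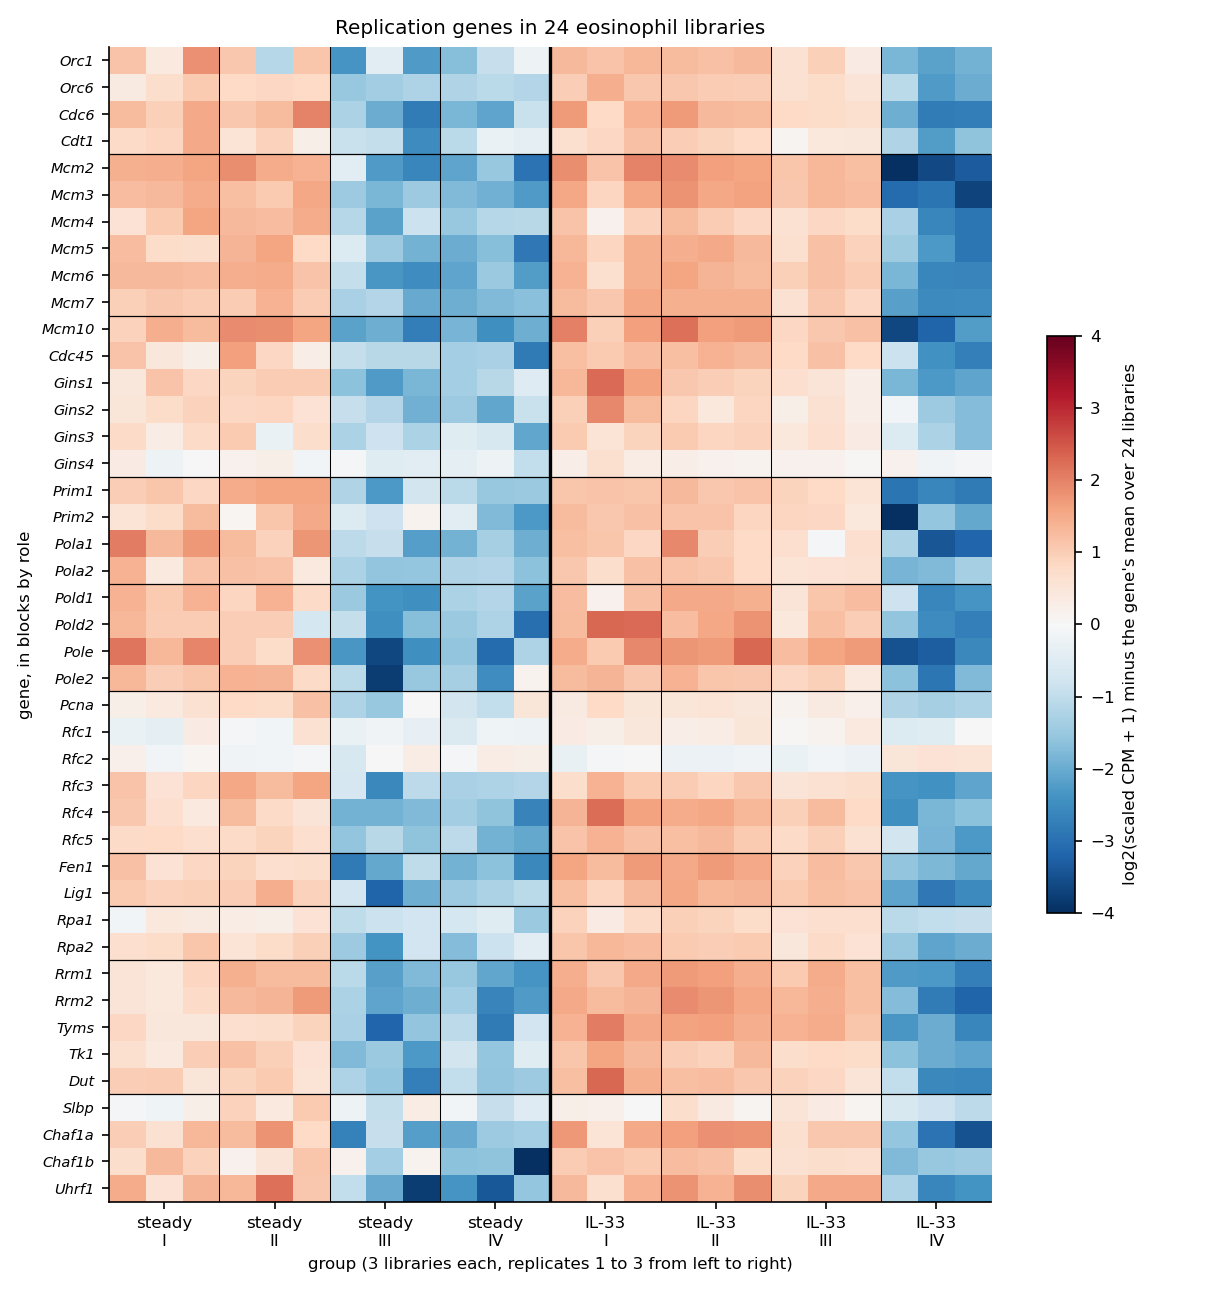
Heat map of the 43 genes (rows, in blocks by role) in the 24 libraries (columns, 3 per group), coloured by log2(scaled CPM + 1) minus the mean of the gene over all libraries. Rows turn from red to blue after stage II in steady state and after stage III under IL-33; Gins4, Rfc1, Rfc2 and Slbp stay pale throughout.

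Together the 43 genes made up 0.722% ± 0.0331 (SD, n = 3) of gene counts in steady state stage I, 0.767% ± 0.0374 in stage II, 0.142% ± 0.0165 in stage III and 0.155% ± 0.00969 in stage IV. Under IL-33 the same share was 0.787% ± 0.0921, 0.844% ± 0.0718, 0.634% ± 0.0321 and 0.121% ± 0.0188 in the 4 stages. The low share thus came 1 stage later under IL-33: the lowest stage III library under IL-33 had 0.613%, and the highest stage III library in steady state 0.155%. The sections that follow take the genes in the order in which they act.

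In steady state the genes fell between stages II and III. Of the 43, 38 fell (edgeR quasi-likelihood test, Benjamini-Hochberg adjusted p under 0.05) and none rose, against 17.4% of all genes tested that fell. The median log2 fold change was -2.63 over the 43 and 0 over all genes tested. The 5 that did not pass the test were Gins4, Prim2, Rfc1, Rfc2 and Chaf1b. Leaving out any 1 of the 6 libraries, or the 4 steady state libraries numbered 3, without which Orc1 was no longer called, kept the count between 37 and 38.

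All 4 licensing genes fell. Cdc6 (chromosome 11, 98907801 to 98923940, GRCm38), the loader that joins the origin recognition complex to the helicase, stood at 94.4, 109 and 180.3 CPM in the stage II libraries and at 17.8, 10.6 and 5.62 CPM at stage III (log2 -3.50 ± 0.41 SE, adjusted p = 1.7e-06). The stage III libraries all lay below those of stage II. Cdt1 (chromosome 8, 122568015 to 122573554), its partner in loading, went from 55.3, 71.9 and 44.7 CPM to 19.9, 19.2 and 5.73 CPM (log2 -1.94 ± 0.38 SE, adjusted p = 4.1e-04), the smallest fall of the licensing genes. Orc6 (chromosome 8, 85299632 to 85308278), the smallest subunit of the origin recognition complex, had tight libraries, at 88.7, 89.5 and 87.7 CPM at stage II and 16.998, 18.9 and 20.9 CPM at stage III (log2 -2.23 ± 0.27 SE, adjusted p = 2.0e-06). Orc1, a subunit that binds ATP, also fell (log2 -2.42 ± 0.68 SE) but its groups overlapped, with 18.97, 3.25 and 19.4 CPM at stage II and 0.8499, 5.94 and 0.954 CPM at stage III.

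The 6 subunits of the MCM2-7 helicase fell together, with log2 fold changes of -2.49 to -3.13; they form a closed ring that needs every one of them. Mcm2 (chromosome 6, 88883474 to 88898780) was at 374, 287 and 269 CPM at stage II and at 73.8, 20.3 and 16.01 CPM at stage III (log2 -3.08 ± 0.44 SE, adjusted p = 1.3e-05). Mcm5 (chromosome 8, 75109569 to 75128439) went from 336, 387 and 227 CPM to 88.02, 46.99 and 34.4 CPM (log2 -2.49 ± 0.37 SE, adjusted p = 2.4e-05). In Mcm2, Mcm5 and Mcm6, the stage III library numbered 1 was the highest of its group, for Mcm6 at 112, 42.3 and 37.5 CPM, and still lay below all stage II libraries. Per kilobase of exon, the level of the 6 subunits in steady state stage II ranged from 44.6 CPM per kb for Mcm2 to 120.3 CPM per kb for Mcm6, and in stage III from 5.28 CPM per kb for Mcm2 to 14.1 CPM per kb for Mcm5.

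Of the 6 genes that switch the helicase on, 5 fell. Mcm10 (chromosome 2, 4989714 to 5012791) lost the most of them and stood at 66.7, 66.1 and 54.2 CPM at stage II against 3.16, 3.77 and 1.697 CPM at stage III (log2 -4.44 ± 0.46 SE, adjusted p = 4.3e-07). Cdc45 (chromosome 16, 18780447 to 18811987), which rides with the helicase, was at 177, 99.98 and 67.6 CPM and then at 28.4, 25.7 and 25.8 CPM (log2 -2.11 ± 0.44 SE, adjusted p = 8.4e-04). The subunits of the GINS complex, which sit in the active helicase in equal number, did not all move alike. Gins1 (chromosome 2, 150905400 to 150931280) fell from 27.4, 29.6 and 29.7 CPM to 3.89, 2.17 and 3.29 CPM (log2 -3.21 ± 0.36 SE, adjusted p = 1.1e-06). Gins4 (chromosome 8, 23226616 to 23237659) was at 70.1, 72.01 and 57.3 CPM at stage II and 58.5, 43.7 and 45.9 CPM at stage III, groups that overlapped (log2 -0.43 ± 0.22 SE, adjusted p = 0.14). The exons of Gins2 overlap the coding gene Gse1 over 67.3% of their length, so its reads may be shared.

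Primase and polymerase alpha lay in the same range. Prim1 (chromosome 10, 128015168 to 128030037), the catalytic primase subunit, went from 129, 138 and 137 CPM to 19.2, 8.46 and 26.7 CPM (log2 -2.89 ± 0.29 SE, adjusted p = 2.8e-07). Pola1 (chromosome X, 93304767 to 93632155), the catalytic subunit of polymerase alpha, went from 59.996, 47.1 and 84.4 CPM to 11.2, 12.2 and 4.45 CPM (log2 -2.78 ± 0.54 SE, adjusted p = 3.7e-04). The large primase subunit Prim2 did not pass the test, with 24.8, 51.97 and 69.6 CPM at stage II and 15.9, 13.03 and 26.3 CPM at stage III (log2 -1.41 ± 0.66 SE, adjusted p = 0.10). Its stage II libraries were the most uneven of the primase genes.

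Pole (chromosome 5, 110286306 to 110337474), the catalytic subunit of the leading strand polymerase epsilon, had the largest fall of the 43. It was at 23.3, 19.4 and 43.1 CPM at stage II, and at 1.46, 0 and 1.27 CPM at stage III, where 1 library had no read of it (31.1-fold, log2 -4.96 ± 0.76 SE, adjusted p = 3.2e-05). The groups were far apart, but the stage III values rest on few reads. Pole2, Pold1 and Pold2, the other polymerase genes, also fell, with -3.25, -3.17 and -2.36 on the log2 scale.

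The sliding clamp fell less, by value, than the polymerases that use it. Pcna (chromosome 2, 132249162 to 132253314) was at 293, 281 and 387 CPM at stage II and 71.4, 58.4 and 172 CPM at stage III (log2 -1.67 ± 0.34 SE, adjusted p = 6.7e-04), with the library numbered 3 the highest in both stages. Of the 5 subunits of the clamp loader, Rfc3, Rfc4 and Rfc5 fell, with -2.78, -2.83 and -2.24 on the log2 scale. Rfc1 (chromosome 5, 65261850 to 65335670), the large subunit, was at 102, 102 and 165 CPM at stage II and 90.6, 97.97 and 87.3 CPM at stage III (log2 -0.42 ± 0.23 SE, adjusted p = 0.17). Rfc2 (chromosome 5, 134581366 to 134601805) was at 270.1, 275 and 288 CPM and 192, 297 and 363 CPM (log2 0.03 ± 0.19 SE, adjusted p = 0.93), a difference near 0. The stage III libraries of Rfc1 lay just below those of stage II and those of Rfc2 overlapped them, while Rfc3, Rfc4 and Rfc5 stood far lower; the differences between subunits were not tested.

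The genes of Okazaki fragment processing fell as the helicase did. Fen1 (chromosome 19, 10199132 to 10204169), the flap nuclease, was at 193, 166 and 167 CPM and then at 13.7, 24.2 and 50.1 CPM (log2 -2.58 ± 0.33 SE, adjusted p = 4.1e-06). Lig1 (chromosome 7, 13277283 to 13311433), the replicative ligase, was at 132, 182 and 124 CPM and then at 38.002, 6.29 and 16.3 CPM (log2 -2.85 ± 0.39 SE, adjusted p = 7.7e-06). Rpa1 (chromosome 11, 75298166 to 75348324), the large subunit of the single-strand binding protein, which also serves DNA repair, fell less, from 156, 149.6 and 190.2 CPM to 62.8, 69.2 and 74.02 CPM (log2 -1.27 ± 0.23 SE, adjusted p = 1.7e-04).

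All 5 nucleotide supply genes fell. Rrm2 (chromosome 12, 24708241 to 24714146), the small subunit of ribonucleotide reductase that is made in S phase, was at 634, 665 and 839.9 CPM at stage II and 106, 58.9 and 65.8 CPM at stage III (log2 -3.21 ± 0.35 SE, adjusted p = 5.8e-07). Its large partner Rrm1 (chromosome 7, 102441695 to 102469771) went from 439.1, 398 and 398 CPM to 76.9, 35.9 and 48.3 CPM (log2 -2.94 ± 0.27 SE, adjusted p = 1.0e-07). Neither gene had overlapping groups. Tyms (chromosome 5, 30058202 to 30073617), which makes thymidylate, went from 111, 115 and 129 CPM to 27.6, 6.86 and 22.5 CPM (log2 -2.64 ± 0.43 SE, adjusted p = 5.5e-05). Tk1 (chromosome 11, 117815526 to 117826092), the S phase thymidine kinase, went from 100.5, 86.6 and 66.2 CPM to 12.3, 15.1 and 8.17 CPM (log2 -2.83 ± 0.30 SE, adjusted p = 4.6e-07).

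The last block was the least uniform. Uhrf1 (chromosome 17, 56303321 to 56323486), which brings the maintenance DNA methyltransferase to new DNA, was at 117, 214 and 96.6 CPM and then at 22.3, 10.5 and 2.33 CPM (log2 -3.61 ± 0.60 SE, adjusted p = 7.2e-05). Slbp (chromosome 5, 33634952 to 33652574), which binds the stem-loop of histone messages, fell by the least of all genes that passed, from 531, 367 and 574 CPM to 238, 142 and 343 CPM (log2 -1.03 ± 0.27 SE, adjusted p = 0.005). The chromatin assembly subunit Chaf1b (chromosome 16, 93883901 to 93906115) did not pass, with 47.2, 59.9 and 90.3 CPM at stage II and 47.2, 15.7 and 45.6 CPM at stage III, where the library numbered 2 was low (log2 -0.86 ± 0.45 SE, adjusted p = 0.14). Its partner Chaf1a fell (log2 -3.24 ± 0.52 SE, adjusted p = 5.9e-05), though 52.5% of its exon length overlaps Ubxn6.

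**Figure D2:**
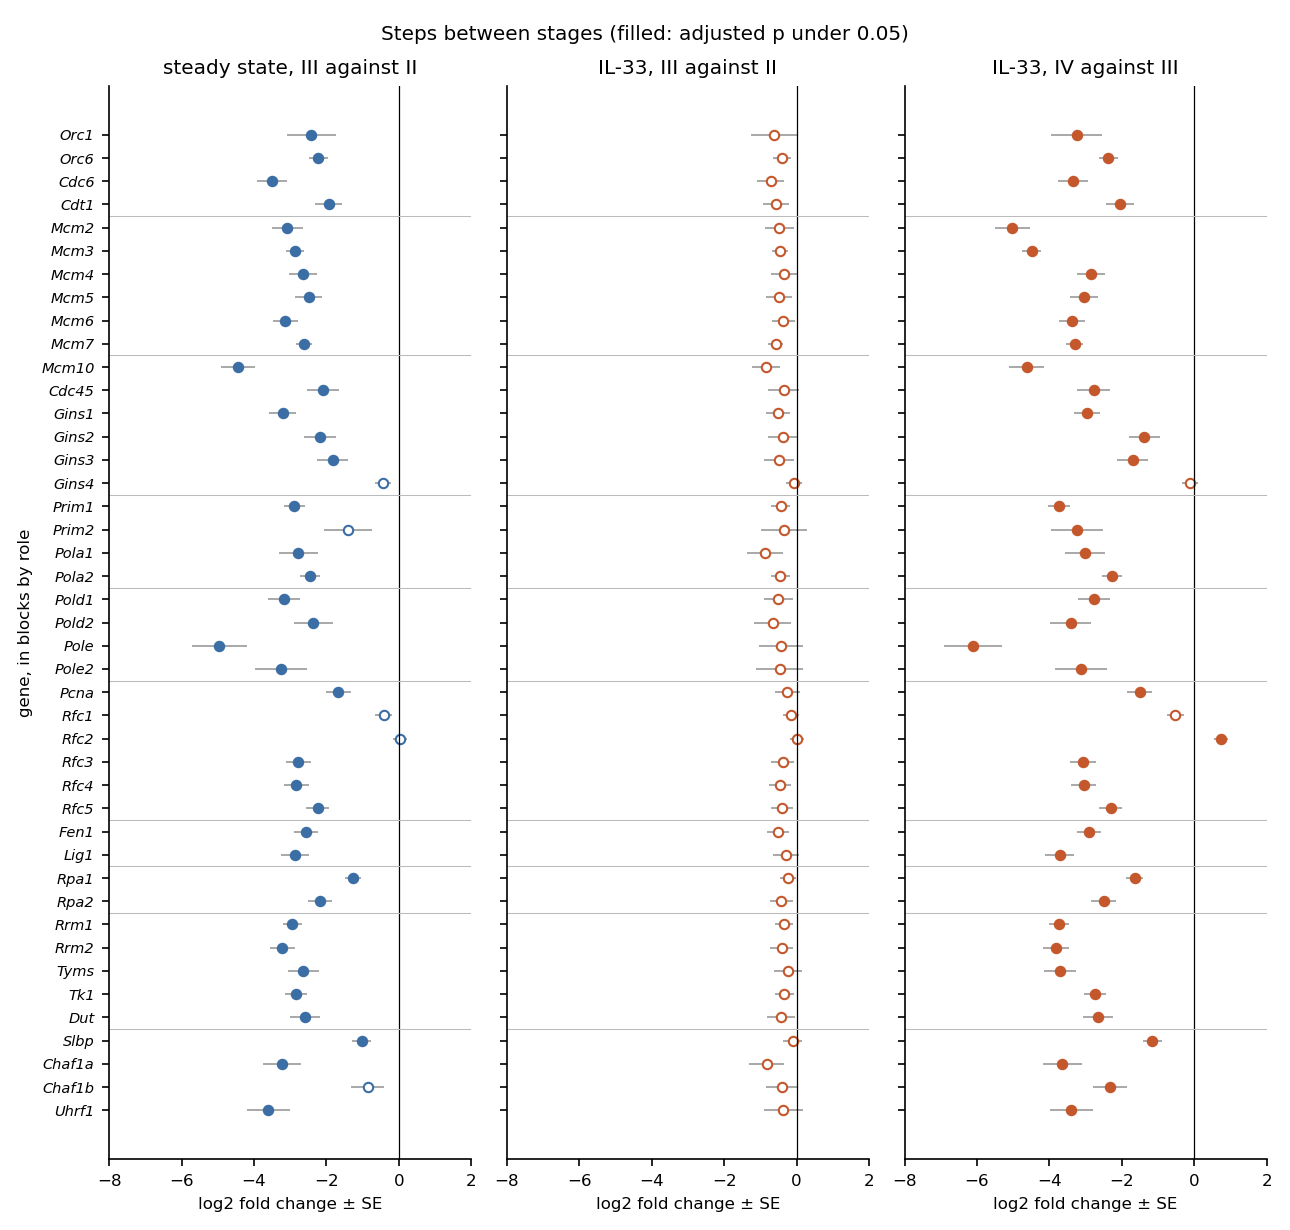
Log2 fold change with its SE for each of the 43 genes (rows) in 3 steps between stages; filled points passed an adjusted p of 0.05. The steady state step from II to III and the IL-33 step from III to IV have medians of -2.63 and -3.01, and the IL-33 step from II to III one of -0.42.

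Under IL-33 none of the 43 genes passed the test in the step from II to III (edgeR), where 0.0863% of all genes tested did. At an unadjusted p under 0.05 there were 2, Mcm7 and Mcm10, beside 684 of the 12743 genes tested, and DESeq2 called 0. With only these groups in the fit, 32 of the 43 had an unadjusted p under 0.05 and 5 were called lower (Cdc6, Mcm7, Mcm10, Fen1 and Chaf1a). That fit called more genes at large too, with 242 lower and 436 higher of the 11257 it tested. Its number of all genes with an unadjusted p under 0.05 is not given here. In 34 of the 43 every stage III library lay below every stage II library, as in 12.5% of all genes tested. The values leaned 1 way all the same: 42 of the 43 had a negative log2 fold change, with a median of -0.42, beside -0.01 over all genes tested. Mcm2 was at 379, 319 and 305 CPM at stage II and 224, 258 and 239 CPM at stage III (log2 -0.48 ± 0.40 SE). Mcm7, with the smallest unadjusted p, was at 364, 367 and 368 CPM and 208, 289 and 241 CPM (log2 -0.57 ± 0.21 SE, adjusted p = 0.52).

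The difference between the 2 steps was tested as an interaction. In 28 of the 43 genes the step from II to III was less negative under IL-33 than in steady state (edgeR), against 4.49% of all genes tested in that direction. The median difference was 2.07 on the log2 scale. It was 2.60 ± 0.58 SE for Mcm2 (adjusted p = 0.0078) and 3.59 ± 0.58 SE for Mcm10 (adjusted p = 6.6e-04). It was 2.81 ± 0.46 SE for Rrm2 (adjusted p = 6.6e-04) and 4.53 ± 0.95 SE for Pole (adjusted p = 0.0051). All 6 helicase subunits and all 5 nucleotide supply genes were among the 28. Of the 15 that did not pass, Pcna had 1.42 ± 0.47 SE (adjusted p = 0.072).

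**Figure D3:**
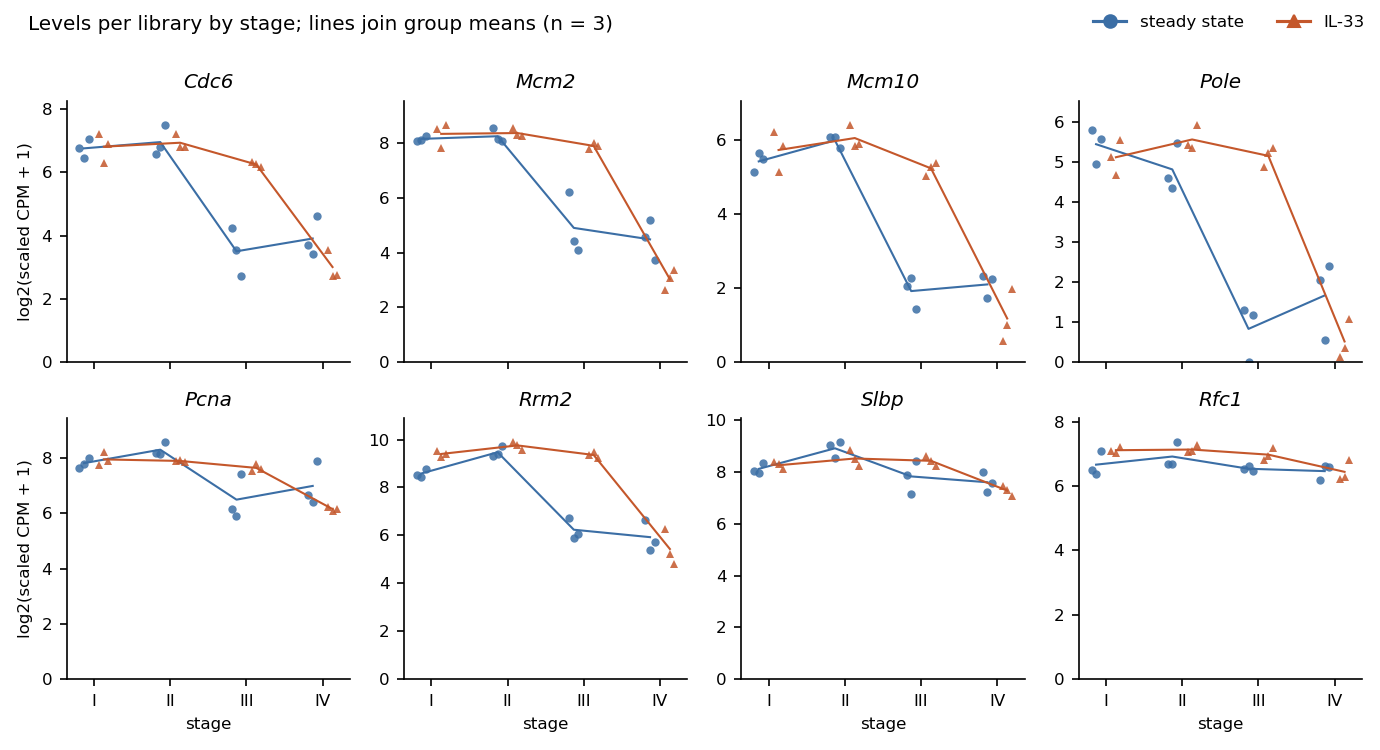
Log2(scaled CPM + 1) by stage for 8 of the genes, each point a library (circles steady state, triangles IL-33) and each line joining group means of 3. Cdc6, Mcm2, Mcm10, Pole and Rrm2 drop at stage III in steady state and at stage IV under IL-33, whereas Rfc1 changes little in either.

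The fall came in the next step under IL-33. From stage III to IV, 40 of the 43 genes fell and 1, Rfc2, rose (edgeR); of all genes tested, 16% fell and 13.1% rose. The median was -3.01 on the log2 scale over the 43, and 0.01 over all genes tested. The genes that did not pass were Gins4 and Rfc1, which had not passed in the steady state step either.

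Cdc6 dropped from 78.96, 75.1 and 70.8 CPM to 10.7, 5.54 and 5.73 CPM (log2 -3.35 ± 0.41 SE, adjusted p = 2.4e-06). Mcm2 dropped from 224, 258 and 239 CPM to 5.22, 7.51 and 9.37 CPM (32.5-fold, log2 -5.02 ± 0.48 SE, adjusted p = 1.4e-07), and Mcm5 from 202, 293 and 248 CPM to 48.1, 25.6 and 16.8 CPM (log2 -3.04 ± 0.38 SE, adjusted p = 3.2e-06). The 6 helicase subunits spread more widely in this step than in the steady state one, from -2.85 to -5.02 on the log2 scale. Mcm10, which starts the helicase, went from 31.6, 37.4 and 40.7 CPM to 0.483, 0.983 and 2.91 CPM (log2 -4.63 ± 0.47 SE, adjusted p = 2.9e-07). Cdc45 went from 98.4, 129 and 99.01 CPM to 30.5, 9.56 and 7.64 CPM (log2 -2.77 ± 0.45 SE, adjusted p = 7.4e-05). For Cdc45, Mcm5 and Cdc6 the stage IV library numbered 1 was the highest of its group, and for Mcm2 the lowest.

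Pole again had the largest fall, from 28.3, 36.3 and 39.3 CPM to 0.0966, 0.268 and 1.09 CPM (69.3-fold, log2 -6.12 ± 0.81 SE, adjusted p = 6.0e-06). Prim1 fell from 83.8, 78.7 and 65.8 CPM to 5.02, 6.61 and 5.46 CPM (log2 -3.74 ± 0.30 SE, adjusted p = 2.1e-08). Prim2, which had not passed in steady state, fell here from 43.3, 42.6 and 32.2 CPM to 0, 7.42 and 5.002 CPM (log2 -3.24 ± 0.71 SE, adjusted p = 0.0014), 1 stage IV library being at 0. Primase thus left the stage III range in all IL-33 stage IV libraries. Pcna fell from 186, 219 and 196 CPM to 73.7, 66.7 and 71.2 CPM (log2 -1.51 ± 0.34 SE, adjusted p = 0.0018), with even libraries in both groups. Lig1 went from 136, 151 and 146 CPM to 14.5, 8.13 and 10.5 CPM (log2 -3.71 ± 0.40 SE, adjusted p = 5.3e-07).

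All 5 nucleotide supply genes fell again, with a median of -3.72 on the log2 scale beside -2.83 in the steady state step. Rrm2 was at 654, 716 and 598 CPM at stage III and 76.6, 35.9 and 27.01 CPM at stage IV (log2 -3.82 ± 0.36 SE, adjusted p = 1.0e-07), and Rrm1 at 345, 462 and 383 CPM and 33.3, 32.4 and 24.01 CPM (log2 -3.73 ± 0.28 SE, adjusted p = 7.8e-09). Tyms was at 184, 196 and 153 CPM and 13.1, 16.9 and 10.5 CPM (log2 -3.72 ± 0.45 SE, adjusted p = 1.8e-06). The salvage enzyme Tk1 was at 73.5, 77.5 and 74.3 CPM and 13.5, 10.5 and 9.64 CPM (log2 -2.74 ± 0.30 SE, adjusted p = 5.1e-07). Slbp again fell the least of the genes that fell, from 393, 346 and 300.2 CPM to 176, 157 and 135 CPM (log2 -1.15 ± 0.27 SE, adjusted p = 0.0023). Chaf1b, which had not passed in steady state, fell from 64.5, 68.8 and 66.4 CPM to 11.6, 13.9 and 14.6 CPM (log2 -2.31 ± 0.47 SE, adjusted p = 6.6e-04), and Uhrf1 from 85.7, 131 and 133 CPM to 18.8, 6.61 and 7.82 CPM (log2 -3.40 ± 0.59 SE, adjusted p = 1.4e-04).

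Gins4 and Rfc1 were the members of their complexes that did not pass. Gins4 was at 69.1, 69.03 and 63.6 CPM at stage III and 69.9, 56.1 and 58.7 CPM at stage IV (log2 -0.13 ± 0.22 SE, adjusted p = 0.71), and the groups overlapped. Rfc1 was at 112, 120.2 and 144 CPM and 73.6, 77.6 and 111 CPM (log2 -0.52 ± 0.23 SE, adjusted p = 0.094), and its groups did not overlap; it passed with only the compared groups in the fit, with the replicate block, and with libraries scaled by their totals, where its log2 fold change was -0.76. Rfc2, a small subunit of the clamp loader, went the other way, from 245, 279 and 254 CPM to 414, 445.98 and 435 CPM (1.66-fold, log2 0.74 ± 0.19 SE, adjusted p = 0.0061). This call was lost when libraries were scaled by their totals alone (log2 0.49, adjusted p = 0.053 in edgeR). The exons of Rfc2 overlap those of Lat2, an adaptor gene of immune receptor signalling on the opposite strand, over 15.1% of their length, and the libraries do not mark strand. Lat2 was at 27.1, 21.8 and 24.6 CPM at stage III under IL-33 and 419, 405 and 348 CPM at stage IV (log2 3.99 ± 0.39 SE), and its part in the counts of Rfc2 was not tested.

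The steps from III to IV differed between conditions in 36 of the 43 genes, all more negative under IL-33 (edgeR interaction; 10.3% of all genes tested in that direction). The median difference was -3.01 on the log2 scale. It was -4.38 ± 0.61 SE for Mcm2, -3.56 ± 0.46 SE for Rrm2 and -7.60 ± 1.08 SE for Pole (adjusted p = 3.3e-05, 1.8e-05 and 4.0e-05). These differences use the stage III libraries that the step from II to III also uses.

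Setting the conditions against each other at each stage gave the same contrast in another form, from the same libraries. At stage III, 37 of the 43 genes were higher under IL-33 and none lower (edgeR), against 18.5% of all genes tested that were higher. The median was 2.32 on the log2 scale, beside 0.00 over all genes. Pole had the largest difference (log2 5.24 ± 0.77 SE, adjusted p = 2.0e-05), followed by Mcm10 (log2 3.67 ± 0.45 SE, adjusted p = 2.6e-06). Genes that did not pass were Gins4, Prim2, Rfc1, Rfc2, Slbp and Chaf1b, a set that holds all 5 genes that did not pass in the steady state step. Slbp overlapped between conditions, at 393, 346 and 300.2 CPM under IL-33 and 238, 142 and 343 CPM in steady state (log2 0.52 ± 0.27 SE, adjusted p = 0.13).

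At stages I and II, none of the 43 passed in either direction (edgeR; 4.06% and 8.03% of all genes tested passed in either direction). At an unadjusted p under 0.05 there were 7 at stage I and 2 at stage II, beside 2579 and 3024 of the 12743 genes tested. DESeq2 called 3 higher at stage I (Gins1, Rfc4 and Rrm1) and 0 at stage II. Rrm1 at stage I was at 234, 220.2 and 298 CPM in steady state and 457.8, 348 and 474 CPM under IL-33, groups that did not overlap (log2 0.77 ± 0.25 SE, adjusted p = 0.079). The medians were 0.29 at stage I and 0.22 at stage II. With 3 libraries a group, a difference of this size was not detectable for most of these genes, which does not show that the levels are alike.

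**Figure D4:**
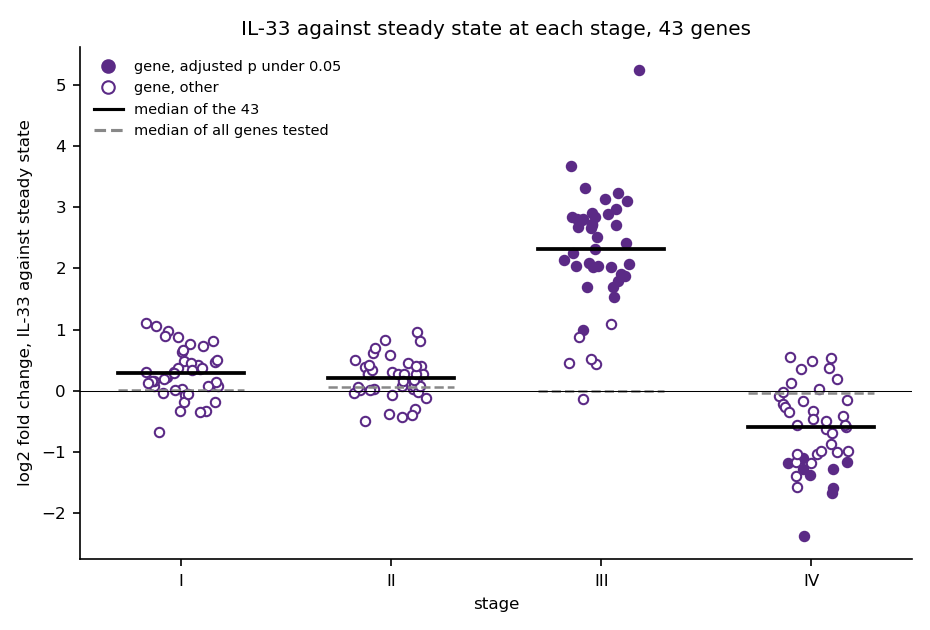
Log2 fold change of IL-33 against steady state (vertical axis) at each stage (horizontal axis) for the 43 genes, filled where the adjusted p is under 0.05; solid bars mark the median of the 43 and dashed bars that of all genes tested. The median is 2.32 at stage III and -0.58 at stage IV.

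At stage IV the sign turned: 9 of the 43 genes were lower under IL-33 and none higher (edgeR), against 4.68% of all genes tested that were lower. They were Cdt1, Mcm2, Mcm3, Gins1, Prim1, Pole, Rfc3, Lig1 and Tk1, from 8 of the 10 roles. Mcm3 was at 43.1, 38.3 and 29.8 CPM in steady state and 16.8, 18.5 and 10.5 CPM under IL-33 (log2 -1.28 ± 0.23 SE, adjusted p = 6.5e-04). Prim1 was at 20.7, 15.1 and 15.5 CPM and 5.02, 6.61 and 5.46 CPM (log2 -1.58 ± 0.29 SE, adjusted p = 6.1e-04). Neither gene overlapped between the conditions. Pole was at 3.13, 0.462 and 4.25 CPM and 0.0966, 0.268 and 1.09 CPM (log2 -2.36 ± 0.78 SE, adjusted p = 0.0499), and here the groups overlapped. The count depended on single libraries: it was 3 without steady state stage IV library 3, 2 without IL-33 stage IV library 2 and 14 without IL-33 stage IV library 1, 2 when only the stage IV libraries were fitted, and 6 without the libraries numbered 3. Of all genes tested, 7.48% were higher at this stage. Markers differed here too: the 10 eosinophil markers summed to 3433 to 4541 CPM in steady state and 20772 to 26960.1 CPM under IL-33 (6 higher, 1 lower), the 11 neutrophil markers to 10546 to 26441 CPM and 6279.6 to 10414 CPM (2 lower), and the 7 of basophils and mast cells to 122 to 794 CPM and 1799 to 2768 CPM (5 higher, 1 lower). Their part in the stage IV values was not tested.

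Groups 1 stage apart were also compared across conditions. IL-33 stage III against steady state stage II gave 0 of 43 genes (edgeR), where 8.36% of all genes tested passed in either direction. At an unadjusted p under 0.05 there were 3 of the 43, beside 2927 of the 12743 genes tested. DESeq2 called 2 lower (Prim1 and Rfc3). The median was -0.17 on the log2 scale. Prim1 was at 129, 138 and 137 CPM at steady state stage II and 83.8, 78.7 and 65.8 CPM at IL-33 stage III (log2 -0.82 ± 0.27 SE, adjusted p = 0.06). IL-33 stage IV against steady state stage III gave 1 gene higher, Rfc2 (6.3% of all genes tested were higher), and 8 lower (4.54% of all genes): Mcm2, Mcm3, Mcm7, Prim1, Prim2, Rfc3, Rrm1 and Chaf1b. The largest of these falls was that of Mcm2 (log2 -2.31 ± 0.44 SE, adjusted p = 0.0012). The 8 became 4 without steady state stage III library 1, 5 without library 3 of that group or without IL-33 stage IV library 2 or 3, and 2 when only these groups were fitted; the call of Rfc2 was lost without any 1 of 5 of the 6 libraries.

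The remaining steps moved few genes. In steady state, between stages I and II, none of the 43 passed (edgeR), where 4.87% of all genes tested passed in either direction. An unadjusted p under 0.05 was found for 4 of the 43, beside 2478 of the 12743 genes tested. DESeq2 called 2 higher, Rrm1 and Slbp. Slbp was at 262, 249 and 328 CPM at stage I and 531, 367 and 574 CPM at stage II (log2 0.81 ± 0.27 SE, adjusted p = 0.08). Rrm2 was at 369.7, 347 and 437.1 CPM and 634, 665 and 839.9 CPM (log2 0.89 ± 0.32 SE, adjusted p = 0.11). Neither gene's groups overlapped. A fit blocked on the replicate number, which paired the libraries of this step, called 2 higher, Rrm2 and Slbp. Under IL-33 none passed from I to II (edgeR), where 0.0942% of all genes tested did. Gins1 alone had an unadjusted p under 0.05, beside 821 of the 12743 genes tested, and DESeq2 called 0. The difference between the conditions in this step was not called for any of the 43 (edgeR; 0% of all genes tested, of which 967 had an unadjusted p under 0.05), with 1 at an unadjusted p under 0.05 and 0 in DESeq2.

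From stage III to IV in steady state 2 genes rose, Gins1 and Tk1 (3.55% of all genes tested rose), and 1 fell, Chaf1b (5.67% of all genes fell; edgeR). Gins1 was at 3.89, 2.17 and 3.29 CPM and 4.86, 6.01 and 9.6 CPM (log2 1.12 ± 0.35 SE, adjusted p = 0.045), and Tk1 at 12.3, 15.1 and 8.17 CPM and 26.3, 14.6 and 31.4 CPM (log2 1.02 ± 0.28 SE, adjusted p = 0.025). Chaf1b was at 47.2, 15.7 and 45.6 CPM and 12.6, 13.03 and 1.51 CPM (log2 -1.98 ± 0.47 SE, adjusted p = 0.0094). All 3 calls were lost without the libraries numbered 3. Leaving out any 1 of 5 of the 6 libraries lost Gins1 (all but stage IV library 1), and any 1 of 4 lost Tk1 (all but stage III library 2 and stage IV library 2); the call of Chaf1b held without each of the 6. In the fit blocked on replicate number, Tk1 alone was called higher.

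Genes that work beside the 43 were counted in 8 further lists. Of all genes tested, 17.4% fell and 17.2% rose from II to III in steady state, and 16% and 13.1% from III to IV under IL-33. Of 32 other replication factors, 24 fell and 1 rose in the steady state step from II to III, and 26 fell and 1 rose in the IL-33 step from III to IV (edgeR). The riser was Pold4, the small subunit of polymerase delta (log2 1.71 ± 0.43 SE, adjusted p = 0.0035 and log2 1.38 ± 0.42 SE, adjusted p = 0.015), though its IL-33 call was lost with libraries scaled by totals (log2 1.14). Tipin, of the fork protection complex, fell from 209.9 ± 26.8 CPM (SD, n = 3) to 31.7 ± 3.92 CPM (log2 -2.73 ± 0.20 SE, adjusted p = 1.6e-08). Of 6 S phase cyclin and kinase genes, 5 fell in the first of these steps and 6 in the second, with Ccna2 going from 253 ± 3.12 to 28.1 ± 13.9 CPM in steady state. Of 18 tested genes of fork repair and checkpoint, 16 and 14 fell, led in steady state by Rad18 (log2 -3.04 ± 0.35 SE, adjusted p = 1.2e-06). Of 10 genes of replication-coupled chromatin, 9 fell in each, and of 19 of nucleotide synthesis, 17 and 16.

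Of 17 E2F and pocket protein genes, 8 fell and 2 rose in the steady state step, where 17.2% of all genes tested rose, and 10 fell in the IL-33 step. The pocket protein gene Rbl1 fell from 119 ± 36.4 CPM to 13.7 ± 3.23 CPM (log2 -3.12 ± 0.30 SE, adjusted p = 1.9e-07). Its relative Rbl2, a pocket protein gene of resting cells, rose from 71.8 ± 31.8 CPM to 139 ± 38.4 CPM (log2 0.95 ± 0.33 SE, adjusted p = 0.027). E2f8, a repressor made in S phase, fell (log2 -2.91 ± 0.32 SE, adjusted p = 6.5e-07), whereas E2f2 rose (log2 0.88 ± 0.32 SE, adjusted p = 0.037). The rise of E2f2 was not confined to this step: it also rose from I to II in steady state (edgeR log2 2.41 ± 0.34 SE, adjusted p = 1.7e-04). From III to IV in steady state it fell (edgeR log2 -1.62 ± 0.33 SE, adjusted p = 0.0028). With libraries scaled by their totals the rises of Rbl2 and E2f2 from II to III were no longer called (log2 0.65 and 0.57), nor was that of E2f2 with relative log expression factors (log2 0.80). Under IL-33 from III to IV, neither gene passed (log2 0.21 for Rbl2 and -0.09 for E2f2).

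Enzymes that keep nucleotides in balance outside S phase formed the last list. Of 5, 2 rose and 1 fell in the steady state step, and 4 rose in the IL-33 step. Among all genes tested, 17.2% rose and 17.4% fell in the steady state step, and 13.1% rose in the IL-33 step. Samhd1, which breaks down deoxynucleotides in non-dividing cells, was at 209 ± 122 CPM at stage II and 1507 ± 171 CPM at stage III of steady state (log2 2.85 ± 0.28 SE, adjusted p = 2.8e-07). Under IL-33 it was at 291 ± 36.5 CPM at stage III and 1856 ± 135 CPM at stage IV (log2 2.67 ± 0.28 SE, adjusted p = 4.0e-07). Its rise was not confined to these steps: it also rose from I to II in steady state, from 47.03 ± 11.3 CPM (log2 2.15 ± 0.28 SE, adjusted p = 7.2e-05), and from II to III under IL-33, from 105 ± 8.24 CPM (log2 1.47 ± 0.27 SE, adjusted p = 0.03). Rrm2b, the reductase subunit used outside S phase, rose in steady state (log2 1.26 ± 0.43 SE, adjusted p = 0.026), where its S phase counterpart Rrm2 fell as given above. Dck, a salvage kinase, rose from I to II in steady state (log2 1.38 ± 0.28 SE, adjusted p = 0.0054), then fell from II to III and rose in the IL-33 step from III to IV (log2 -1.11 ± 0.28 SE, adjusted p = 0.0037 and log2 0.95 ± 0.28 SE, adjusted p = 0.012). Scaled by library totals, Samhd1 was still called from II to III in steady state and from III to IV under IL-33, but Rrm2b (log2 0.90) and the IL-33 rise of Dck (log2 0.71) were not; Rrm2b was not called without the libraries numbered 3 either (log2 0.81).

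Genes of G2 and mitosis, which mark cells past S phase, followed the same steps: 28 of 28 fell from II to III in steady state and 27 of 28 from III to IV under IL-33. The shares of all genes tested that fell in these steps were 17.4% and 16%. At stage I, 9 of the 28 were higher under IL-33 (edgeR), with a median of 0.99 on the log2 scale. Of the 12743 genes tested, 345 were higher there. None of the 43 was called, with a median of 0.29 and 34 positive values, beside 6502 among all genes tested. An unadjusted p under 0.05 was found for 7 of the 43 and for 2579 of all genes tested (edgeR). Ccnb2, a mitotic cyclin, was at 129 ± 32.6 CPM at steady state stage I and 303 ± 28.5 CPM under IL-33 (log2 1.23 ± 0.25 SE, adjusted p = 0.0072). In steady state 4 of the 28 rose from I to II (edgeR), where 4.87% of all genes tested passed in either direction. This count of 4 was 10 in DESeq2 and 2 with library totals or without the libraries numbered 3. The stage I count was 12 in DESeq2 and 7 to 9 in the other settings. The summed share of the 28 in gene counts was 0.343% ± 0.0509 in steady state stage I (SD, n = 3), 0.586% ± 0.131 in stage II and 0.618% ± 0.0283 in IL-33 stage I. The ratio of the summed share of the 43 to that of the 28 lay at 1.92 to 2.39 in steady state stage I, 0.992 to 1.55 in stage II and 1.13 to 1.38 in IL-33 stage I. Steady state stage I thus stood above both in every library. A high ratio was not particular to that group: it was 1.73 to 2.32 in steady state stage III and 2.32 to 3.64 in stage IV. Under IL-33 the ratio was 1.01 to 1.25 in stage II, 0.960 to 0.9995 in stage III and 1.56 to 1.96 in stage IV. Whether the lists differ in their change was not tested.

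Some markers of other cell types moved with these steps, and others did not. The 5 primary granule genes, which neutrophil and monocyte precursors make, summed to 2466 to 9767 CPM per library in steady state stage II and 159 to 439.9 CPM at stage III. All 5 fell in that step, as did 17.4% of all genes tested. Under IL-33 they summed to 254 to 312 CPM at stage III and 133 to 784 CPM at stage IV, where 3 rose and 1 fell. The 11 neutrophil markers summed to 16059 to 25431 CPM at steady state stage II, 19767 to 23516 CPM at stage III and 2656 to 3894 CPM at IL-33 stage III. All 11, and all 9 of monocytes and macrophages, were lower under IL-33 at stage III, as were 1899 of the 12743 genes tested. From III to IV under IL-33, 6 of the 11 and 6 of the 9 rose, where 13.1% of all genes tested rose and 16% fell. The 9 tested of 13 erythroid markers included none of the 4 globin genes, which were listed at 0 in every group; the list summed to 212 to 301 CPM at steady state stage II and 49.2 to 189 CPM at stage III. The 8 stem and progenitor markers summed to 189 to 268 and 47.2 to 65.8 CPM in the same groups, with Mecom, Procr and Slamf1 at 0 in both. Kit, of that list, encodes CD117, which the sort used.

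Markers of basophils and mast cells, 7 of 7 found, went the way of the 43 in some comparisons only. From II to III in steady state 5 fell and none rose, and at stage III 5 were higher and 1 lower under IL-33 (edgeR). Of all genes tested, 17.4% fell in that step and 18.5% were higher under IL-33 at stage III. At stage IV 5 were again higher and 1 lower under IL-33, where 9 of the 43 were lower and none higher. Their sum was 1450.2 to 3723 CPM at steady state stage II, 732 to 1092 CPM at stage III and 3213 to 3559 CPM at IL-33 stage III. Cpa3, a protease gene of mast cells and basophils, was at 504, 702 and 189 CPM, 30.7, 39.4 and 23.6 CPM and 1037, 1058 and 1056 CPM in these 3 groups, and Ms4a2, a subunit of their IgE receptor, at 107, 104 and 32.9 CPM, 8.13, 3.32 and 2.86 CPM and 293, 333 and 319 CPM. At IL-33 stage II both were lower than at IL-33 stage III, at 541, 656 and 749 CPM and 152, 244 and 226 CPM. Mcpt8, of the same list, did not rise in that step, with 103, 148 and 175 CPM and then 81.3, 98.7 and 111 CPM. Of the T and NK cell list, 2 of 6 genes were tested. The list summed to 270.5 to 838 CPM at steady state stage II, 24.01 to 84.6 CPM at stage III and 306 to 367 CPM at IL-33 stage III. Most of that was Nkg7, at 836, 806 and 270 CPM, 44.7, 12.9 and 53.2 CPM and 300, 362 and 302 CPM. Cd3d, a T cell gene of the same list, went the other way at low levels. It was at 1.54, 0.915 and 0.616 CPM, 11.2, 11.1 and 31.4 CPM and 6.08, 5.16 and 4.65 CPM in these groups. Cd3e, Klrb1c and Il2rb were at 0 at steady state stage III and under 1 CPM in every library. The lists of megakaryocytes and B cells reached at most 658 and 108 CPM in any library. The part of such cells in the results was not tested.

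Since the 43 genes moved together, their promoters were searched for short words, using the RefSeq promoters on GRCm38.p6, each from 250 bases before to 50 after a start site. An entry was found for 36 of the 43 genes. A match to 1 of 4 E2F words (TTTCCCGC, TTTCGCGC, TTTGCCGC or TTTGGCGC, either strand, overlaps allowed) was present in 14 of the 36, or 38.9%, against 4.67% of the 10049 tested genes with a promoter and 2.6% of the 27025 genes in all. Among 24 promoters of G2 and mitosis genes, 4.17% had one. The 14 genes were Orc1, Cdc6, Cdt1, Mcm3, Mcm5, Mcm6, Mcm7, Gins3, Pola1, Pold1, Pole2, Rfc3, Lig1 and Uhrf1, so licensing and helicase genes hold 7 of them. In the shorter window from 100 bases before to 50 after the start, the shares were 27.8% of the 36 and 2.56% of the tested genes.

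The promoters of Mcm5, Mcm6 and Pola1 are shown because their words lie before both the RefSeq start and the GENCODE gene, in genes that fell together. Letters run 5′ to 3′ on the strand of the gene, and capitals mark the E2F words.
Mcm5, chr8:75109331-75109392, plus strand: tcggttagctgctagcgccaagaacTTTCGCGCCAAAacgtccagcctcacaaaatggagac
Mcm6, chr1:128359721-128359840, minus strand: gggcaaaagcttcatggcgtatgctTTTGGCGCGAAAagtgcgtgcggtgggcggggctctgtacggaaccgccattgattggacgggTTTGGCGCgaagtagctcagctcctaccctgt
Pola1, chrX:93632261-93632318, minus strand: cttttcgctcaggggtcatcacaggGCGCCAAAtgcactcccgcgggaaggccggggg
In Mcm5 and Mcm6 the capitals run on because words on both strands overlap, and Mcm6 holds a further word nearer the start. The first match lay 110 bases before the RefSeq start in Mcm6, 138 in Pola1 and 153 in Mcm5. In Orc1, Cdc6, Mcm7, Gins3, Rfc3, Lig1 and Uhrf1 the RefSeq start with the word lies inside the gene as GENCODE places it. In Uhrf1 and Lig1 only the second of their start sites has a word, and in Mcm7 only the first. All 14 genes with a word fell from II to III in steady state, with -1.83 to -3.61 on the log2 scale. Genes with no such word in the window fell too, Rrm2 and Tyms among them, and a match is no evidence of binding.

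**Figure D5:**
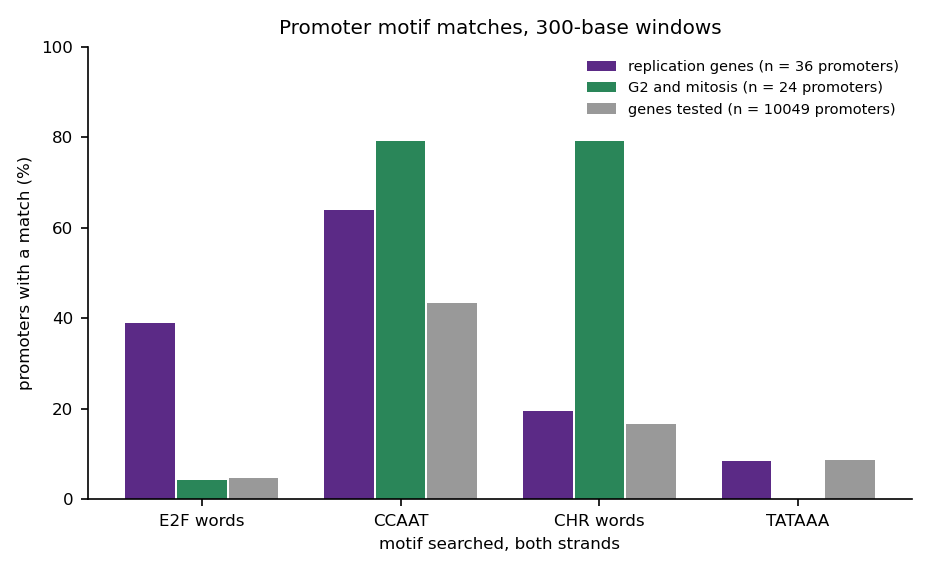
Share of promoters (vertical axis, per cent) with at least 1 match to each motif (horizontal axis) for 36 of the replication genes, 24 genes of G2 and mitosis and 10049 tested genes. E2F words are in 38.9% of the replication promoters, and CHR words in 79.2% of those of G2 and mitosis.

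The word known from mitotic genes was spread the other way. The cell cycle homology region (CHR; TTTGAA or TTCGAA, either strand), known from genes of G2 and mitosis, was in 79.2% of their 24 promoters, 19.4% of the 36 and 16.7% of the tested genes. CCAAT was in 63.9% of the 36 and 43.3% of the tested genes, and TATAAA in 8.33% and 8.73%. In the shorter window TATAAA was in 0% of the 36. These shares describe the windows; they were not compared by a test.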

How the data were processed

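RNA of 24 libraries, each of sorted eosinophils pooled from 3 mice, was made into SMART-Seq v4 cDNA with 17 cycles and Nextera XT libraries, per the labels' protocols. This method does not mark strand, and sort purity was at least 95 per cent per the labels. The authors deposited 1 table per library with a whole-number read count per gene, used here as raw counts; STAR 2.6.1a, the build mm10 and DESeq2 are named in the submitters' processing notes, and what counted the reads, with which strand setting and annotation, is not given in the sources used here. Entries for reads of no feature and ambiguous reads stayed out of library sizes and tests.

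Counts were fitted in R 4.3.3 with edgeR 4.0.16 (filter on low counts by group, TMM factors, 1 quasi-likelihood fit of 8 groups over 24 libraries with 16 residual degrees of freedom). Each of 15 comparisons was adjusted by Benjamini and Hochberg over 12743 genes with a threshold of 0.05. SEs were derived from the log2 fold change and the F statistic. Summed over all genes, replicates differed by more than counting error (chi-square per degree of freedom of at least 21.1), so none was a copy of the counts of another. This measure cannot tell separate pools of mice from repeated preparations of the same pool. It also says nothing of genes with few reads, such as Pole. Positions come from GENCODE M21 on GRCm38, promoters from RefSeq on GRCm38.p6. Scripts were tested on simulated data, and Python 3.11.15 with matplotlib 3.10.9 made the figures.

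The 43 genes, the lists and the tests were chosen with earlier results of these data known. Any of the 43 could be named, and a panel of 23 has values in every library, as do in each comparison the largest rise and fall among called genes and exceptions of 5 or fewer; other lists gave up to 3 called genes per direction by adjusted p. Orc1, Mcm3, Mcm6 and Mcm7, outside that rule, were given library values after these were seen.

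Alternatives were DESeq2 1.42.0, relative log expression factors, library totals, no filter, only the groups compared, a replicate block, the fit without the 4 steady state libraries numbered 3, each library left out, and a shorter promoter window. For the further gene lists the first 3 and the fit without the libraries numbered 3 were added after seeing the data. Same-numbered libraries deviated together (each of 3 correlations above 0.1) in the steady state steps I to II and III to IV and in the first 2 steps under IL-33, so the numbers were taken to pair the libraries there and not in the other comparisons; the pairing comes from the data, not the labels.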

Additional observations from a re-analysis of the deposited data

Results flagged for a closer look

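Steps between stages differed in size between the conditions by a test of the difference itself (edgeR interaction). From stage II to III, 28 of the 43 genes were called, among them Mcm2 (2.60 on the log2 scale), Mcm10 (3.59), Rrm2 (2.81) and Pole (4.53), all less negative under IL-33. From stage III to IV, 36 were called, among them Mcm2 (-4.38), Rrm2 (-3.56) and Pole (-7.60), all more negative under IL-33. Both sets of differences share the stage III libraries, so they are not independent. The neutrophil markers moved with the condition, lower under IL-33 at stage III in 11 of 11, beside 1899 of the 12743 genes tested. The reads of no gene moved with it too, and the part of both was not tested.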

How the results depend on the processing

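No call among the 43 changed sign under any alternative run. The larger counts stayed within 1.5 times of their value: 36 to 42 genes fell from II to III in steady state, 39 to 41 fell under IL-33 from III to IV, and 36 to 40 were higher under IL-33 at stage III. The interaction gave 24 to 33 for II to III and 33 to 38 for III to IV. Scaling by library totals moved the median of all genes by -0.33 (log2) from II to III in steady state, where 1349 genes then rose and 3057 fell in place of 2188 and 2217 (IL-33 III to IV: 1099 and 2597 in place of 1669 and 2041; stage III across conditions: 3049 and 1220 in place of 2357 and 1899; stage IV across conditions: 748 and 749 in place of 953 and 597; steady state III to IV: 652 and 491, where TMM factors gave more that fell (723) than rose; interactions: 892 and 115 in place of 572 and 270 for II to III, 539 and 1904 in place of 1075 and 1313 for III to IV), and the 43 then had a median of -2.96.

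Small counts depended on the setting; the cause was not tested. Genes higher in stage II than in I in steady state: 0, then 2 with DESeq2, 2 with the replicate block and 0 to 1 with 1 library left out. Higher under IL-33 at stage I: 0, then 3 with DESeq2, 1 (Rfc4) with the block and 0 to 2. With only the groups compared, 2 were higher under IL-33 at stage II, 5 fell from II to III under IL-33, and 4 were lower in IL-33 stage III than in steady state stage II; that last count was 2 with DESeq2, 1 with relative log expression factors, 1 with library totals and 2 without the libraries numbered 3. Lower under IL-33 at stage IV: 9, with 14 in DESeq2, 2 with only the groups compared and 2 to 14 with 1 library left out. Higher in stage IV than in III in steady state: 2, with 1 without the filter, 1 with the replicate block, 0 with only the groups compared or without the libraries numbered 3 and 0 to 2 with 1 left out; the 1 lower became 0 with only the groups compared or without the libraries numbered 3. Rfc2, the 1 riser from III to IV under IL-33, was lost with library totals (0). IL-33 stage IV against steady state stage III: 1 higher, with 0 without the filter, 0 with only the groups compared and 0 to 1 with 1 left out, and 8 lower, with 2 with only the groups compared and 4 to 11 with 1 left out. The replicate block moved no other count by over 1.5 times, for example 38 genes that fell from II to III in steady state. At few reads, as for Pole in steady state stage III, depth limits the size of the fold.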

Other observations

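At stage IV, where 9 of the 43 genes were lower under IL-33, 5 of 32 other replication factors were lower too and none higher, among them Tipin (log2 -0.79 ± 0.19 SE, adjusted p = 0.0074), Topbp1 and Pole4; the 5 were 8 in DESeq2 and 3 without the libraries numbered 3. Of 10 genes of replication-coupled chromatin 3 were lower, Hat1, Asf1b and Nasp, and of 19 of nucleotide synthesis 2 were lower and 1 higher, as of 18 of fork repair and checkpoint; of all genes tested, 4.68% were lower and 7.48% higher. Of the 17 E2F and pocket protein genes, 3 were higher and 1 lower (edgeR): E2f2 was at 60.8 ± 21.6 CPM in steady state and 154 ± 28.3 CPM under IL-33 (log2 1.34 ± 0.33 SE, adjusted p = 0.0084), and its dimer partner Tfdp1 at 75.5 ± 25.1 and 211 ± 45.6 CPM (log2 1.48 ± 0.28 SE, adjusted p = 0.001). The salvage kinase gene Dck was at 53.2 ± 24.3 and 176 ± 29.1 CPM (log2 1.72 ± 0.28 SE, adjusted p = 2.4e-04). Umps, which makes uridine monophosphate, was at 59.5 ± 8.93 and 12.9 ± 7.45 CPM (log2 -2.20 ± 0.36 SE, adjusted p = 2.0e-04), and the histone acetyltransferase gene Hat1 differed likewise (log2 -1.34 ± 0.24 SE, adjusted p = 5.5e-04). Of 28 genes of G2 and mitosis, Kif23 was higher and Mki67 lower (log2 2.12 ± 0.33 SE, adjusted p = 1.4e-04 and log2 -0.95 ± 0.28 SE, adjusted p = 0.028). Neutrophil markers, which summed to 10546 to 26441 CPM in steady state and 6279.6 to 10414 CPM under IL-33, also differed at this stage (2 of 11 lower), and their part was not tested. The calls of E2f2, Tfdp1, Dck, Umps, Hat1, Kif23 and Mki67 held with relative log expression factors, with library totals and in DESeq2; without the libraries numbered 3, that of Mki67 was lost (log2 -0.68, adjusted p = 0.063 in edgeR).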
